A study of Mus musculus with 30 samples.

Results

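The genes described here are 9 early response genes of the extracellular matrix and the cytoskeleton in whole mouse kidney: Ccn1, Ccn2, Ankrd1, Thbs1, Rnd3, Arl4c, Gas1, Tnc and Acta2. They were taken from both count tables by the Ensembl identifier that maps to each symbol, and are 9 of the 57133 genes counted. The list was drawn up with results of these data known, so it is a chosen set and not a sample of all genes. All 9 passed the filter on low counts in every comparison.

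Poly-A RNA of kidneys was sequenced from a transgenic genotype (TG, labelled Gsta2-H2BeGFP) and from wild-type mice (WT), in 30 libraries. In the group called IRI nephrectomy was combined with ischemia-reperfusion injury, a stop and return of renal blood flow, with 6 TG and 6 WT libraries of males at 4 hours. After nephrectomy alone (NX) there were 3 TG and 3 WT libraries of males, at a time the labels do not give. Without surgery there were 3 TG and 3 WT libraries of females and 3 TG and 3 WT libraries of males. The labels give no age or strain, no promoter for the transgene, and do not say that each library is its own animal, so p-values rest on spread between libraries that may be technical. Replicates are numbered from 0.

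Total counts were 59574069 to 91354407 in the 18 NX and IRI libraries and 49040915 to 66446450 in the 12 no-surgery libraries. Levels are in CPM, for which counts were divided by TMM library sizes, and were set separately in the 2 tables, so a level with surgery beside one without surgery is not a tested difference. EGFP, the reporter, had 0 counts in every WT library except the library labelled WT IRI replicate 1, which held 206 counts. Its level there was 2.59 CPM, inside the 1.19 to 6.34 CPM of the TG IRI libraries. The comparison of TG with WT after IRI and some counts of gene lists are also given without this library. Most other WT IRI values include it. Gsta2, a glutathione transferase gene, was at 77.4 ± 9.73 CPM in TG and 84.1 ± 33.3 CPM in WT libraries after IRI (SD, n = 6 each). Summed adipocyte markers were at 709 CPM in WT NX replicate 0 and at 14.8 to 41.5 CPM in the other 5 NX libraries. The tissue label fits the surgery libraries, where 7 proximal tubule markers summed to 9383 to 16558 CPM and none was at 0.

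Matricellular proteins are secreted into the matrix around cells and act on cell surface receptors more than as scaffolding. Their genes are switched on within hours by stretch, serum and injury, through YAP and TAZ, which bind DNA with TEAD factors, and through serum response factor (SRF) with its actin-sensing cofactors, the MRTFs. Ccn1 and Ccn2 encode secreted proteins that bind integrins, Thbs1 encodes thrombospondin, which can activate latent TGF-beta, and Tnc encodes tenascin-C, a matrix glycoprotein of developing and healing tissue. Ankrd1 encodes an ankyrin repeat protein that binds titin in heart muscle and is widely used as a readout of YAP. Rnd3 encodes a small GTP-binding protein that stays bound to GTP and loosens actin stress fibres, and Arl4c encodes an ARF-like small GTPase that brings cytohesins to the plasma membrane. Gas1 encodes a membrane-anchored co-receptor for hedgehog ligands, and Acta2 encodes the actin of smooth muscle, pericytes and myofibroblasts.

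The upstream sequences of 3 genes that were high after IRI are shown because each holds a motif of a TEAD factor or of SRF. They are the 250 bases before the RefSeq start site in GRCm38.p6, on the minus strand in all 3, with motif matches in capitals. Positions are chr3:145649986-145650235 for Ccn1, chr19:36119845-36120094 for Ankrd1 and chr2:51149112-51149361 for Rnd3.
Ccn1: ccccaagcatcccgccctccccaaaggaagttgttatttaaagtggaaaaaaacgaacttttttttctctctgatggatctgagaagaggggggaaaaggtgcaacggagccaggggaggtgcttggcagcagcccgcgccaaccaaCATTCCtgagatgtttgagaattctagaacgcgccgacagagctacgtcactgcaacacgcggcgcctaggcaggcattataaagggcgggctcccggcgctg
Ankrd1: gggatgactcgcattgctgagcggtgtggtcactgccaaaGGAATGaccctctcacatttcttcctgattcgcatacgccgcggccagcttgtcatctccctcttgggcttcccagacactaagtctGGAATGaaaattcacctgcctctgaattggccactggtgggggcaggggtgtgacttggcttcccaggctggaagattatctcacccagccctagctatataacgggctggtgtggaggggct
Rnd3: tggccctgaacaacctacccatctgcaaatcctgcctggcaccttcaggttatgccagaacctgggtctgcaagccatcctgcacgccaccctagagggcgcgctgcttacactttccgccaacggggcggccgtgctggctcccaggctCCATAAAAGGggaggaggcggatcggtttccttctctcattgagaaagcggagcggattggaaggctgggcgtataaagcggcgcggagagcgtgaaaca

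The windows searched ran from 250 bases before to 50 bases after the start site, on both strands, and RefSeq windows were matched for 7 of the 9 genes, without Ccn2 and Thbs1. The TEAD motif GGAATG lay at -210 to -205 and at -123 to -118 in Ankrd1, at -146 to -141 in Acta2, and, read on the opposite strand, at -103 to -98 in Ccn1. The SRF motif known as the CArG box, searched as CCWWWWWWGG with W for A or T, lay at -100 to -91 in Rnd3. Sequences that depart from this pattern were not searched for, so the lack of a match in other windows holds for the exact pattern only. No window of the 7 genes held the AP-1 motif TGANTCA or, as a motif of another family, the E-box CACGTG. Among 32851 mouse promoter windows of the same length, 14.7% held the TEAD motif, 1.63% the CArG box, 7.81% the AP-1 motif and 7.15% the E-box. None of the matches overlapped another. A match describes these letters only and is not evidence of binding.

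After IRI, 7 of the 9 genes stood far above their level after NX in both genotypes, and Gas1 and Acta2 did not. The 7 genes were Ccn1, Ccn2, Ankrd1, Thbs1, Rnd3, Arl4c and Tnc, and each was at least 2-fold higher with no overlap between IRI and NX libraries. Among all 19264 genes fitted, 11.9% in TG and 13.5% in WT were at least 2-fold higher, and 17.3% in TG and 14.2% in WT were higher without overlap. Because the list was drawn up with results of these data known, this comparison is given as a description, with no test of the members. Fewer cells of a type and less RNA per cell cannot be told apart in whole kidney.

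**Figure D1:**
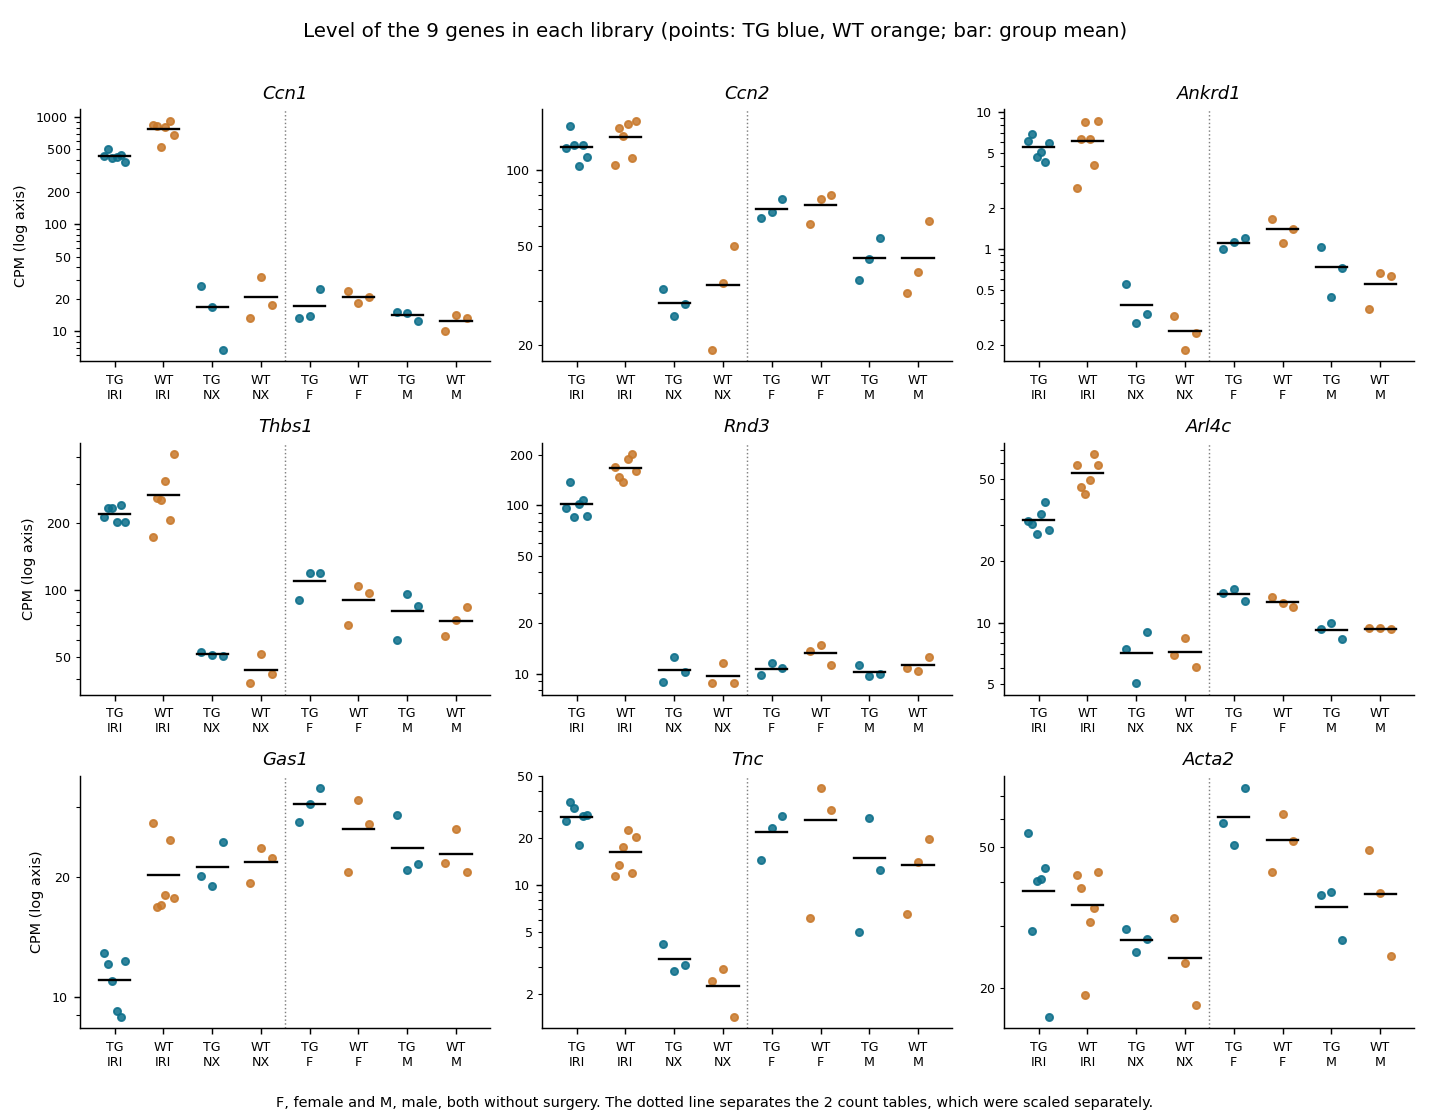
Level of each of the 9 genes in CPM (log axis) in every library of the 8 groups, with TG in blue, WT in orange and a bar at the group mean. Ccn1, Ankrd1, Thbs1, Rnd3, Arl4c, Ccn2 and Tnc stand higher after IRI than after NX in both genotypes, while Gas1 is lowest in TG after IRI, at 8.93 to 12.9 CPM.

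Ccn1 (ENSMUSG00000028195, chromosome 3, 145352731 to 145355736, minus strand, GRCm39) had the highest level per length of the 9 genes after IRI. In replicate order from 0, its level after IRI was 432, 500, 419, 426, 441 and 383 CPM in TG libraries, against 852, 832, 529, 815, 924 and 675 CPM in WT libraries. After NX it was 26.8, 16.8 and 6.73 CPM in TG libraries, against 13.4, 32.3 and 17.8 CPM in WT libraries. Every TG IRI library lay below every WT IRI library, whereas the NX libraries of the 2 genotypes overlapped. IRI against NX gave log2 fold changes of 4.69 ± 0.37 in TG (SE, 25.8-fold) and 5.19 ± 0.39 in WT (36.4-fold). Without surgery its level was 13.3 to 25 CPM in TG females, 18.6 to 23.7 CPM in WT females, 12.5 to 15.1 CPM in TG males and 10.2 to 14.3 CPM in WT males.

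Ccn2 (ENSMUSG00000019997, chromosome 10, 24471340 to 24474581, plus strand) ranged from 104 to 151 CPM with a median of 125 CPM in TG libraries after IRI, against 105 to 158 CPM with a median of 143 CPM in WT libraries. After NX its level was 33.6, 26 and 29.1 CPM in TG and 19.1, 35.5 and 49.9 CPM in WT libraries. The genotypes overlapped in both conditions. The log2 fold change of IRI over NX was 2.07 ± 0.22 in TG and 1.96 ± 0.22 in WT, and without WT NX replicate 0 the WT value was 1.67. Without surgery the level was 64.6 to 77.1 CPM in TG females, 61.1 to 79.6 CPM in WT females, 36.3 to 53.6 CPM in TG males and 32.4 to 62.7 CPM in WT males.

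Thbs1 (ENSMUSG00000040152, chromosome 2, 117942357 to 117957614, plus strand) was at 213, 234, 235, 202, 242 and 202 CPM in TG libraries after IRI, against 173, 260, 254, 310, 207 and 410 CPM in WT libraries. After NX it was at 52.8, 51 and 50.7 CPM in TG libraries and 38.1, 51.6 and 42.1 CPM in WT libraries. The WT IRI libraries spread more widely than the TG IRI libraries, with a coefficient of variation of 8.06% in TG and 31.2% in WT. IRI over NX was 2.10 ± 0.20 on the log2 scale in TG and 2.61 ± 0.21 in WT. Without surgery Thbs1 ranged from 90.6 to 119 CPM in TG females, 69.9 to 104 CPM in WT females, 59.9 to 95.9 CPM in TG males and 61.9 to 84 CPM in WT males.

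Tnc (ENSMUSG00000028364, chromosome 4, 63878022 to 63965252, minus strand) was at 25.8, 34.4, 31.3, 18, 27.7 and 28.2 CPM in TG libraries after IRI, against 11.5, 13.5, 17.6, 22.5, 12 and 20.4 CPM in WT libraries. After NX it was at 4.17, 2.8 and 3.07 CPM in TG and 2.44, 2.9 and 1.43 CPM in WT libraries. The IRI libraries of the genotypes overlapped only through TG replicate 3, at 18 CPM. Its IRI over NX difference was 3.04 ± 0.28 on the log2 scale in TG and 2.84 ± 0.28 in WT. Without surgery Tnc varied more than any other of the 9 genes in 3 of the 4 groups, from 14.5 to 27.7 CPM in TG females, 6.16 to 42.3 CPM in WT females, 5.02 to 26.9 CPM in TG males and 6.54 to 19.8 CPM in WT males. The NX levels of Tnc lay below all of these, across tables that were scaled separately.

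Ankrd1 (ENSMUSG00000024803, chromosome 19, 36089361 to 36097499, minus strand) was the gene with the fewest counts. After IRI it was at 6.16, 6.89, 4.7, 5.08, 4.32 and 5.88 CPM in TG libraries, against 2.78, 6.33, 8.48, 6.37, 4.12 and 8.6 CPM in WT libraries. After NX it was at 0.551, 0.288 and 0.333 CPM in TG libraries, from 53, 18 and 25 counts, and at 0.325, 0.183 and 0.241 CPM in WT libraries, from 21, 12 and 15 counts. The log2 difference of IRI over NX was 3.79 ± 0.36 in TG and 4.60 ± 0.39 in WT. An unnamed gene on the opposite strand overlaps it, with counts of 1.14% of those of Ankrd1 over all libraries, and the sources used here do not state whether reads were counted by strand. In no-surgery kidneys Ankrd1 was at 1 to 1.19 CPM in TG females, 1.11 to 1.66 CPM in WT females, 0.448 to 1.03 CPM in TG males and 0.365 to 0.667 CPM in WT males.

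Rnd3 (ENSMUSG00000017144, chromosome 2, 51020450 to 51039123, minus strand) was at 95.8, 137, 85.4, 102, 107 and 86.7 CPM in TG libraries after IRI, against 169, 147, 137, 188, 201 and 160 CPM in WT libraries. TG replicate 1 and WT replicate 2 both round to 137 CPM, and the WT library is the higher, so the groups did not overlap but touched. Levels after NX were 8.87, 12.5 and 10.2 CPM in TG and 8.84, 11.5 and 8.75 CPM in WT libraries. IRI over NX was 3.28 ± 0.18 in TG (9.72-fold) and 4.11 ± 0.19 in WT (17.2-fold) on the log2 scale. Without surgery Rnd3 was at 9.81 to 11.5 CPM in TG females, 11.2 to 14.8 CPM in WT females, 9.68 to 11.2 CPM in TG males and 10.3 to 12.5 CPM in WT males.

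Arl4c (ENSMUSG00000049866, chromosome 1, 88600847 to 88629943, minus strand) was at 31.5, 30.3, 27.1, 33.8, 38.7 and 28.4 CPM in TG libraries after IRI, against 58.7, 46.1, 42.5, 49.8, 66.4 and 59 CPM in WT libraries. The highest TG library lay below the lowest WT library. Levels after NX were 7.4, 5.06 and 8.96 CPM in TG libraries and 6.99, 8.46 and 6.11 CPM in WT libraries. The log2 fold change of IRI over NX was 2.15 ± 0.18 in TG and 2.90 ± 0.19 in WT. Without surgery Arl4c was at 12.8 to 14.6 CPM in TG females and 11.9 to 13.4 CPM in WT females, above the 8.28 to 9.92 CPM of TG males and the 9.28 to 9.4 CPM of WT males.

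Gas1 (ENSMUSG00000052957, chromosome 13, 60322219 to 60325179, minus strand) followed another course. After IRI it was at 12.9, 12.1, 11, 9.21, 8.93 and 12.3 CPM in TG libraries, against 27.4, 16.8, 17, 18.1, 24.8 and 17.7 CPM in WT libraries. After NX it was at 20.1, 19 and 24.5 CPM in TG libraries and 19.4, 23.7 and 22.3 CPM in WT libraries. The TG IRI libraries therefore lay below every other surgery library, while WT IRI and WT NX overlapped, beside 14.4% of all genes that were lower after IRI in TG without overlap. IRI over NX was -0.94 ± 0.16 in TG (1.92-fold lower) and -0.10 ± 0.16 in WT on the log2 scale. In no-surgery kidneys Gas1 was at 27.5 to 33.6 CPM in TG females, 20.6 to 31.3 CPM in WT females, 20.9 to 28.6 CPM in TG males and 20.6 to 26.5 CPM in WT males.

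Acta2 (ENSMUSG00000035783, chromosome 19, 34218490 to 34232990, minus strand) was at 55, 29, 40.3, 40.7, 43.7 and 16.6 CPM in TG libraries after IRI, against 41.7, 38.3, 19.1, 30.7, 33.6 and 42.5 CPM in WT libraries. After NX it was at 29.3, 25.3 and 27.5 CPM in TG and 31.6, 23.5 and 17.9 CPM in WT libraries. All 4 groups overlapped, and IRI over NX was 0.45 ± 0.28 in TG and 0.50 ± 0.28 in WT on the log2 scale. Summed smooth muscle and pericyte markers, without Acta2, were at 303 to 393 CPM in TG IRI, 253 to 388 CPM in WT IRI, 216 to 237 CPM in TG NX and 218 to 262 CPM in WT NX libraries. Acta2 without surgery was at 50.8 to 73.8 CPM in TG females, 42.7 to 62.2 CPM in WT females, 27.3 to 37.5 CPM in TG males and 24.6 to 49.2 CPM in WT males.

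Per kilobase of exon, the order of mean levels after IRI was the same in both genotypes except that Tnc and Ankrd1, the last of the order, changed places. Ccn1 led with 215 ± 18.9 CPM per kilobase in TG and 382 ± 71.3 in WT libraries (SD, n = 6 each). Ccn2 followed with 43.4 ± 5.6 in TG and 47.3 ± 7.72 in WT, next to Thbs1 with 36.4 ± 2.94 in TG and 44.3 ± 13.8 in WT, and these neighbours lay within their spread in WT. Rnd3 came next with 23.1 ± 4.25 in TG and 37.7 ± 5.5 in WT, then Acta2 with 17.1 ± 6.02 in TG and 15.6 ± 3.99 in WT, and Arl4c with 5.76 ± 0.758 in TG and 9.79 ± 1.65 in WT. The lowest were Gas1 with 3.74 ± 0.565 in TG and 6.86 ± 1.55 in WT, Tnc with 3.55 ± 0.718 in TG and 2.09 ± 0.591 in WT, and Ankrd1 with 1.91 ± 0.337 in TG and 2.12 ± 0.804 in WT. Gas1 and Tnc in TG, and Tnc and Ankrd1 in WT, did not differ beyond their spread. After NX no gene stood out: Acta2 was at 12.5 ± 0.917 CPM per kilobase in TG and 11.1 ± 3.14 in WT, Ccn2 at 10.3 ± 1.33 in TG and 12.2 ± 5.37 in WT, and Ccn1 at 8.32 ± 4.98 in TG and 10.5 ± 4.9 in WT (SD, n = 3 each).

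The comparison of TG with WT after IRI sets the levels of the 2 genotypes side by side at 4 hours. In it, Ccn1, Rnd3, Arl4c and Gas1 were lower in TG kidneys, and the other 5 genes did not pass the test. The log2 fold change of TG over WT was -0.84 ± 0.12 for Ccn1 (1.79-fold lower), -0.72 ± 0.12 for Rnd3 (1.65-fold lower), -0.78 ± 0.12 for Arl4c (1.71-fold lower) and -0.89 ± 0.15 for Gas1 (1.85-fold lower). Each had an adjusted p of 0.0435 in the quasi-likelihood test of edgeR, with Benjamini-Hochberg adjustment over all 17111 genes. Over all genes 0.0643% were called lower and 0.0701% were called in either direction, and 0.468% were lower in TG with no overlap between the groups. Since the list was drawn up with such results known, the count of 4 in 9 is a description.

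Tnc went the other way without passing the test, at 0.76 ± 0.18 (adjusted p = 0.124), with 5 of 6 TG libraries above the highest WT library. Thbs1 was at -0.29 ± 0.16 (adjusted p = 0.427), Ccn2 at -0.14 ± 0.11 (adjusted p = 0.606), Ankrd1 at -0.16 ± 0.23 (adjusted p = 0.805) and Acta2 at 0.12 ± 0.24 (adjusted p = 0.87), all by edgeR over all genes. Of the genes often used as YAP readouts, Ccn1 passed the test and Ccn2 and Ankrd1 did not, with all 3 estimates below 0, and whether the 3 differ from each other was not tested.

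These 4 calls lay close to the threshold. Leaving out any of TG IRI replicates 0, 2, 3 or 5, or of WT IRI replicates 0, 4 or 5, left 0 of the 9 genes called by edgeR, and leaving out TG IRI replicate 1 or 4 left 2. Without the library labelled WT IRI replicate 1, which held EGFP counts, 3 were called and Rnd3 was at -0.75 ± 0.12 (adjusted p = 0.0527 by edgeR). Over all 12 such fits the log2 fold change stayed between -0.93 and -0.78 for Ccn1, -0.81 and -0.66 for Rnd3, -0.84 and -0.70 for Arl4c and -0.94 and -0.78 for Gas1. DESeq2 called 5 of the 9 genes, Tnc (adjusted p = 0.00497) being the fifth.

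Markers of blood cells and endothelium are given for the same libraries, in which the genotypes overlapped. Summed neutrophil markers were at 5.47 to 40.6 CPM in TG IRI libraries and 23.4 to 88.8 CPM in WT IRI libraries. Platelet markers were at 5.54 to 16.8 CPM in TG IRI and 12.6 to 33.6 CPM in WT IRI libraries. For neutrophil and platelet markers the overlap came only from TG IRI replicate 4, at 40.6 and 16.8 CPM. Every other TG IRI library lay below every WT IRI library in both sums. Endothelial markers were at 335 to 495 CPM in TG IRI and 370 to 809 CPM in WT IRI libraries, with 1 of 9 markers at an estimate above 0 for TG over WT. The estimate for TG over WT was below 0 for all 5 measured neutrophil markers and all 4 measured platelet markers. It was above 0 for 0 of 5 podocyte, 0 of 4 thick ascending limb, 1 of 5 collecting duct and 1 of 7 proximal tubule markers. In the remaining lists it was above 0 for 2 of 8 fibroblast, 2 of 7 macrophage, 6 of 12 smooth muscle and pericyte and 2 of 3 measured adipocyte markers. Of 69 measured markers in all 11 cell type lists 0 were called by edgeR, 25 (36.2%) had an unadjusted p under 0.05, beside 14.1% of all genes, and DESeq2 called 5, of which 3 were macrophage and 2 platelet markers. Their part in the differences of Ccn1, Rnd3, Arl4c and Gas1 was not tested.

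**Figure D2:**
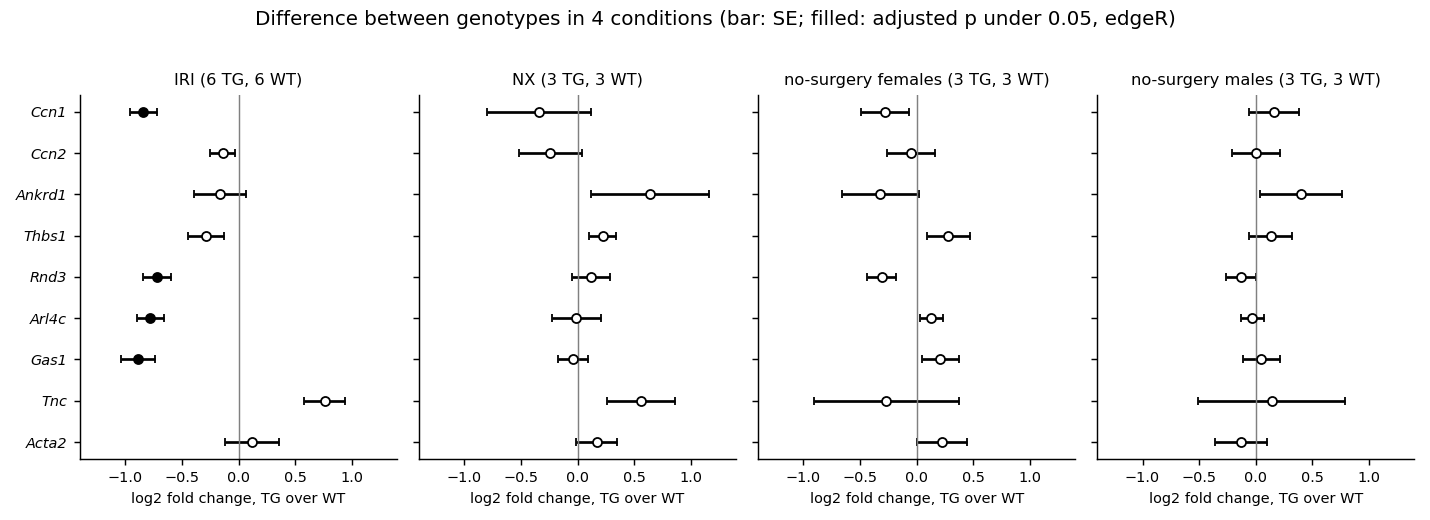
Log2 fold change of TG over WT for the 9 genes in 4 conditions, with SE bars and filled points where the adjusted p of edgeR was under 0.05. Filled points appear only after IRI, at -0.84 for Ccn1, -0.72 for Rnd3, -0.78 for Arl4c and -0.89 for Gas1.

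In the other conditions no difference between the genotypes was called in these genes. After NX 0 of 9 were called by edgeR, 0 had an unadjusted p under 0.05, and DESeq2 called 0, beside 0.0117% of all 17100 genes called by edgeR. In no-surgery females 0 of 9 were called by edgeR, 1 had an unadjusted p under 0.05 (Rnd3, -0.31 ± 0.13, adjusted p = 0.499), and DESeq2 called 0, beside 0.0418% of all 19126 genes. In no-surgery males 0 of 9 were called by edgeR, 0 had an unadjusted p under 0.05 and DESeq2 called 0, beside 0.00523% of all genes. The estimates for Arl4c and Gas1 were close to 0 after NX, at -0.01 ± 0.22 and -0.04 ± 0.13, and that for Rnd3 was 0.12 ± 0.17.

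Whether the response to IRI itself differed between genotypes was tested by the interaction, the IRI over NX difference in TG minus that in WT. It was -0.83 ± 0.22 for Rnd3 (adjusted p = 0.376), -0.83 ± 0.23 for Gas1 (adjusted p = 0.376), -0.76 ± 0.24 for Arl4c (adjusted p = 0.398) and -0.50 ± 0.41 for Ccn1 (adjusted p = 0.743) by edgeR. None of the 9 genes was called by edgeR or DESeq2, although 3 had an unadjusted p under 0.05. By edgeR these were 0.00112 for Rnd3, 0.00177 for Gas1 and 0.00453 for Arl4c. DESeq2 put Rnd3 just over the threshold, at -0.84 (adjusted p = 0.0506). Without TG NX replicate 0, the TG library with the highest Ccn1 level after NX, the estimate for Ccn1 was 0.01. Over all 19264 genes edgeR called 0, or 0%, with 1848 at an unadjusted p under 0.05, and DESeq2 called 51. The lower level of the 4 genes in TG after IRI is thus a difference between genotypes at that point, and a different response to IRI was not shown for any of them.

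Over the 12 IRI libraries the genes did not vary as 1 block. Ccn1, Rnd3, Arl4c and Gas1 separate the genotypes, so no pooled correlation is given for them. Of the 36 pairs, Ccn2 and Thbs1 had a Pearson r of 0.84 and a Spearman correlation of 0.91 over the 12 libraries (permutation test with 100000 resamples, adjusted p = 0.00126 and 0.00144 over the 36 pairs). Without the 2 libraries farthest from the median of Ccn2 the r was 0.88, and within the genotypes it was 0.75 in TG and 0.92 in WT (exact permutation p = 0.0722 and 0.00417, n = 6 each, unadjusted). Ccn2 and Ankrd1 had an r of 0.74 and a Spearman correlation of 0.80 (permutation test, adjusted p = 0.0205 and 0.0132), with 0.40 in TG and 0.89 in WT. Ankrd1 and Thbs1 had an r of 0.70 and a Spearman correlation of 0.69 (permutation test, adjusted p = 0.0372 and 0.0472), but -0.30 in TG and 0.85 in WT, so this relation rests on the WT libraries. Among the 10 pairs of the 5 genes whose genotypes overlap, p was adjusted over those alone. The 3 pairs above passed by Pearson r (permutation test, adjusted p = 0.0007, 0.0259 and 0.0413). The pair of Ankrd1 and Thbs1 did not pass by Spearman correlation (permutation test, adjusted p = 0.053). The pooled r of Ccn2 and Tnc was 0.30. Within the genotypes their r was 0.84 in TG and 0.83 in WT (exact permutation p = 0.0472 and 0.0458, unadjusted). For Thbs1 and Tnc the pooled r was 0.18, with 0.66 in TG and 0.86 in WT (exact permutation p = 0.132 and 0.0236, unadjusted). Tnc averaged 27.6 CPM in TG IRI and 16.2 CPM in WT IRI libraries. This difference enters its pooled r, which thus does not show that Tnc varied apart from Ccn2 or Thbs1.

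WT IRI replicates 0 and 4 were low and replicate 5 was high in Ccn2, Ankrd1, Thbs1 and Tnc together. WT replicate 0 lay below its group mean by 0.35 for Ccn2, 1.02 for Ankrd1, 0.58 for Thbs1 and 0.45 for Tnc, all on the log2 scale, and was above it in Gas1, at 0.46. Ccn1 and Rnd3 had an r of 0.92 within TG (exact permutation p = 0.00972, n = 6, unadjusted) and of 0.75 in WT (exact permutation p = 0.0778, n = 6, unadjusted). This was the highest r in TG among Ccn1, Rnd3, Arl4c and Gas1. Their other pairs ran from -0.71 to 0.38 in TG and from 0.59 to 0.75 in WT. Acta2 had its own pattern, with TG replicate 5 and WT replicate 2 the lowest libraries.

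**Figure D3:**
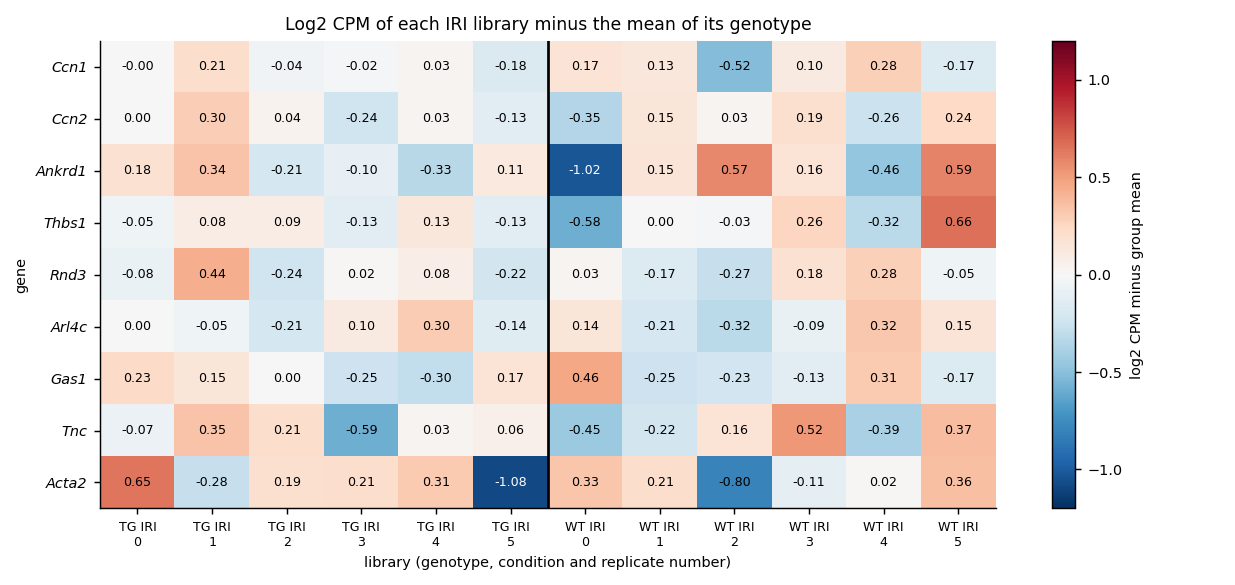
Log2 CPM of each of the 9 genes in each of the 12 IRI libraries minus the mean of its genotype, with TG libraries on the left and WT libraries on the right. Ankrd1 and Thbs1 are lowest in WT replicate 0, at -1.02 and -0.58, and highest in WT replicate 5, at 0.59 and 0.66.

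The genes most like each of the 9 over the IRI libraries were ranked by Pearson r after the mean of each genotype was taken off, among 12387 genes with a symbol and a mean of at least 1 CPM. For Ccn2 they were Mpzl3 and Tpm4, both with an r of 0.94, and Crem with 0.90, of which Tpm4 encodes a tropomyosin of the actin cytoskeleton. Thbs1 was most like Map7d1 (0.96), Csf1 (0.95), the gene of macrophage colony-stimulating factor, and Cd151 (0.94), the gene of a tetraspanin that binds integrins. Tnc was most like Cdh1 (0.95), the gene of E-cadherin, Tmbim1 and Arl6ip5 (both 0.94). For Acta2 the genes were Tmem41a (0.95), Col6a2 and Myh11 (both 0.94), of which Col6a2 encodes a chain of collagen VI and Myh11 the myosin heavy chain of smooth muscle. Ccn1 was nearest to Lrig3 (0.90), Tldc1 (0.89) and Slc12a7 (0.85), Rnd3 to Haus6 (0.88), Dclre1a and Setdb2 (both 0.84), and Arl4c to Bcl11b (0.92), Cbr2 and Plin3 (both 0.90). Gas1 was nearest to Timm21 and Pot1b (both 0.86) and Letmd1 (0.84), and Ankrd1 to Tceanc2 and Stard3nl (both 0.88) and Plagl1 (0.86). These are the highest of all those values over 12 libraries that share their depth and preparation.

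Genes of the pathways around these 9 were called after IRI to unequal degrees. These lists too were chosen with earlier results of these data known, so their counts are a description. Of 23 measured targets of SRF and MRTF, none of them a member, 19 were higher after IRI in TG and 20 in WT, and 0 were lower in either. Over all genes 16.4% in TG and 16.8% in WT were called higher, and 13% in TG and 14.1% in WT lower. The median log2 fold change of the list was 0.93 in TG and 1.11 in WT, beside -0.01 over all genes in both. Itga5, the fibronectin receptor subunit, was at 28.7 ± 3.48 CPM after IRI and 7.33 ± 0.996 CPM after NX in TG (3.91-fold, edgeR adjusted p = 5.6e-07), and 5.41-fold higher in WT. Pdlim7, which binds actin filaments, was 5.36-fold higher in TG and 4.86-fold in WT, and Tpm4 2.73-fold in TG and 3.14-fold in WT. Filip1l, which encodes a filamin A interacting protein, was 1.9-fold higher in TG and 3.77-fold in WT. Of 18 other targets of YAP and TEAD 7 were higher and 1 was lower in each genotype, with a median of 0.28 in TG and 0.35 in WT. Gadd45a, a stress-induced gene, was 9.73-fold higher in TG and 10.1-fold in WT, and F3, the gene of tissue factor, 8.71-fold in TG and 7.36-fold in WT. Amotl2, a YAP-binding scaffold of the angiomotin family, was 2.5-fold higher in TG and 2.72-fold in WT, and Myof, the gene of myoferlin, 2.67-fold in TG and 3.35-fold in WT.

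Among the regulators of these targets, 6 of 21 measured Hippo pathway genes were higher and 1 lower in TG, and 4 were higher and 2 lower in WT. Beside them, 16.4% of all genes in TG and 16.8% in WT were called higher, and 13% in TG and 14.1% in WT lower. The WT counts of this list lay near those shares. Wwtr1, the gene of TAZ, was 1.93-fold higher in TG and 1.54-fold in WT, and Tead4, a DNA-binding partner of YAP and TAZ, 3.11-fold in TG and 2.6-fold in WT. Sav1, a scaffold of the Hippo kinases, was 2.01-fold higher in TG and 1.72-fold in WT, and Amot, the gene of angiomotin, 1.71-fold in TG and 1.41-fold in WT. Of the 3 coactivators of SRF all 3 were higher in TG and 2 in WT, with Mrtfa 1.41-fold higher in TG and 1.32-fold in WT, and Mrtfb 1.75-fold in TG and 1.28-fold in WT. Of 3 other actin genes 2 were higher in both genotypes, Actg1 2.28-fold in TG and in WT, and Actb 1.71-fold in TG and 1.82-fold in WT. These 2 cytoplasmic actins are nearly identical to each other and have many pseudogenes, so how reads were split between them is uncertain. Ankrd2, a relative of Ankrd1, was at 0.138 ± 0.0676 CPM after IRI and 0.0533 ± 0.0924 CPM after NX in TG (edgeR adjusted p = 0.383). In WT it was at 0.243 ± 0.248 CPM after IRI and had 0 counts in all 3 NX libraries, which allows up to 0.0483 CPM in a library (3 counts, counting error only), and edgeR called it (adjusted p = 0.00795).

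Close relatives of Rnd3 and Arl4c rose as well. Rnd1, the close relative of Rnd3, was at 12.2 ± 2.56 CPM after IRI and 0.952 ± 0.624 CPM after NX in TG (13.1-fold, edgeR adjusted p = 3.07e-07), and at 16.1 ± 3.28 CPM after IRI and 0.599 ± 0.304 CPM after NX in WT (26.7-fold, edgeR adjusted p = 2.91e-08). Of 22 ARF and ARF-like genes 10 were higher and 4 lower in TG, and 8 higher and 3 lower in WT. Beside them, 16.4% of all genes in TG and 16.8% in WT were called higher, and 13% in TG and 14.1% in WT lower. Arl4d, a relative of Arl4c, was 2.34-fold higher in TG and 4.18-fold in WT, Arl13b, a GTPase of cilia, 1.92-fold in TG and 2.29-fold in WT, and Arf2 1.9-fold in TG and 2.03-fold in WT. Arl5c was called higher in WT, at 0.386 ± 0.129 CPM after IRI and 0.0514 ± 0.0644 CPM after NX (edgeR adjusted p = 0.011), and in TG it was at 0.322 ± 0.114 CPM after IRI and 0.165 ± 0.172 CPM after NX (edgeR adjusted p = 0.341). Of the 4 cytohesin genes 3 were higher in TG and 4 in WT, led by Cyth3, at 2.06-fold in TG and 2.78-fold in WT. Cyth1 was 1.7-fold higher in TG and 1.35-fold in WT, and Cyth2 1.46-fold in TG and 1.35-fold in WT. Cyth4 was 1.95-fold higher in WT, and its fold of 1.45 in TG did not pass (edgeR adjusted p = 0.134).

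Of 15 receptors for matricellular proteins 9 were higher in each genotype, with 0 lower in TG and 1 lower in WT, and the integrin subunit genes Itga6 (3.1-fold in TG, 3.2-fold in WT), Itga2 (4.89-fold in TG, 3.03-fold in WT), Itga3 (2.66-fold in TG, 2.38-fold in WT) and Itgb3 (2.68-fold in TG, 3.68-fold in WT) were among the higher ones. The shares of all genes beside these and the following counts were 16.4% higher in TG and 16.8% in WT, and 13% and 14.1% lower. In the TGF-beta list of 16 genes 8 were higher in TG and 7 in WT, with 0 lower. Skil, the gene of a SMAD corepressor, was 2.1-fold higher in TG and 2.74-fold in WT, and Smad7, the gene of an inhibitory SMAD, 1.64-fold in TG and 1.93-fold in WT. Bambi, the gene of a pseudoreceptor, was 1.75-fold higher in WT, and its fold of 1.22 in TG did not pass (edgeR adjusted p = 0.385). Tnn, the gene of tenascin-N, was at 2.78 ± 0.944 CPM after IRI and 2.79 ± 1.04 CPM after NX in TG, against 8.1 ± 3.29 CPM after IRI and 0.984 ± 0.824 CPM after NX in WT (edgeR adjusted p = 0.99 in TG and 0.00057 in WT). The interaction for Tnn was -3.05 ± 0.73 (edgeR adjusted p = 0.376). Of 3 other CCN genes 1 was higher in TG and 2 in WT. Ccn4 was at 3.41 ± 0.54 CPM after IRI and 1.24 ± 0.285 CPM after NX in TG (2.75-fold, edgeR adjusted p = 0.000264), and at 3.77 ± 0.97 CPM after IRI and 2.06 ± 0.728 CPM after NX in WT (1.83-fold, edgeR adjusted p = 0.0118). Ccn3 was at 0.854 ± 0.222 CPM after IRI and 0.33 ± 0.202 CPM after NX in TG (edgeR adjusted p = 0.0557), and at 0.89 ± 0.378 CPM after IRI and 0.238 ± 0.172 CPM after NX in WT (3.71-fold, edgeR adjusted p = 0.0121). Thbs2, a relative of Thbs1, was 1.64-fold higher in TG and 1.66-fold in WT, the 1 called among 4 other thrombospondins. Of 9 other matricellular genes 2 were higher in TG, and 2 higher and 1 lower in WT, which is near the shares of all genes. Spp1, the gene of osteopontin, was 1.91-fold higher in TG and 1.98-fold in WT. Smoc1 was 3.36-fold lower and Smoc2 1.99-fold higher in WT, and neither passed in TG (edgeR adjusted p = 0.0928 and 0.672). In the hedgehog list of 15 genes, the pathway of Gas1, 2 were higher and 4 lower in TG, and 2 higher and 5 lower in WT. The 2 higher in each genotype were near the share of all genes. Sufu, an inhibitor of the pathway, was at 37.1 ± 3.89 CPM after IRI and 67.9 ± 14.7 CPM after NX in TG (edgeR adjusted p = 8.93e-06), and at 38.5 ± 2.51 CPM after IRI and 67 ± 7.4 CPM after NX in WT (edgeR adjusted p = 2.64e-05). Shh, a ligand, was 2.25-fold lower in TG and 2.86-fold lower in WT, and Gli3, a transcription factor of the pathway, 2.76-fold higher in TG and 3.23-fold in WT. Disp2, a relative of the gene that releases the ligands, was 2.6-fold lower in WT, and its 1.48-fold lower level in TG did not pass (edgeR adjusted p = 0.463).

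Without WT NX replicate 0, the library with the adipocyte markers, 17 of the 23 SRF and MRTF targets and 6 of the 18 YAP and TEAD targets were higher in WT. The WT calls of the CCN family (2), the thrombospondins (1) and the SRF coactivators (2) were lost. Without WT IRI replicate 1, 20 SRF and MRTF targets, 7 YAP and TEAD targets and 1 SRF coactivator were higher in WT. Of 7 macrophage markers 4 were then higher in WT, against 2 with that library. Neutrophil markers also moved with IRI, with all 5 measured genes called higher in each genotype, at 5.47 to 40.6 CPM summed in TG IRI and 0.496 to 0.81 CPM in TG NX libraries. In WT they summed to 23.4 to 88.8 CPM after IRI and 0.244 to 0.927 CPM after NX. Of 4 measured platelet markers 2 were called higher in TG and 4 in WT. Of 7 proximal tubule markers 3 were called lower after IRI in each genotype, and of 12 smooth muscle and pericyte markers 2 were called higher in TG and 3 in WT. In WT, 3 of 4 thick ascending limb markers and 2 of 5 podocyte markers were called higher, against 0 in TG, and 3 of 6 adipocyte markers lower, against 0 in TG. These WT counts depended on WT NX replicate 0. Without it 1 thick ascending limb marker and 1 podocyte marker were called higher, and 1 adipocyte marker was higher and 0 were lower. Each of the other 4 marker lists had at most 2 genes called higher and at most 1 lower in either genotype. With all libraries, 16.4% of all genes in TG and 16.8% in WT were called higher, and 13% in TG and 14.1% in WT lower. Their part in the list counts was not tested.

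**Figure D4:**
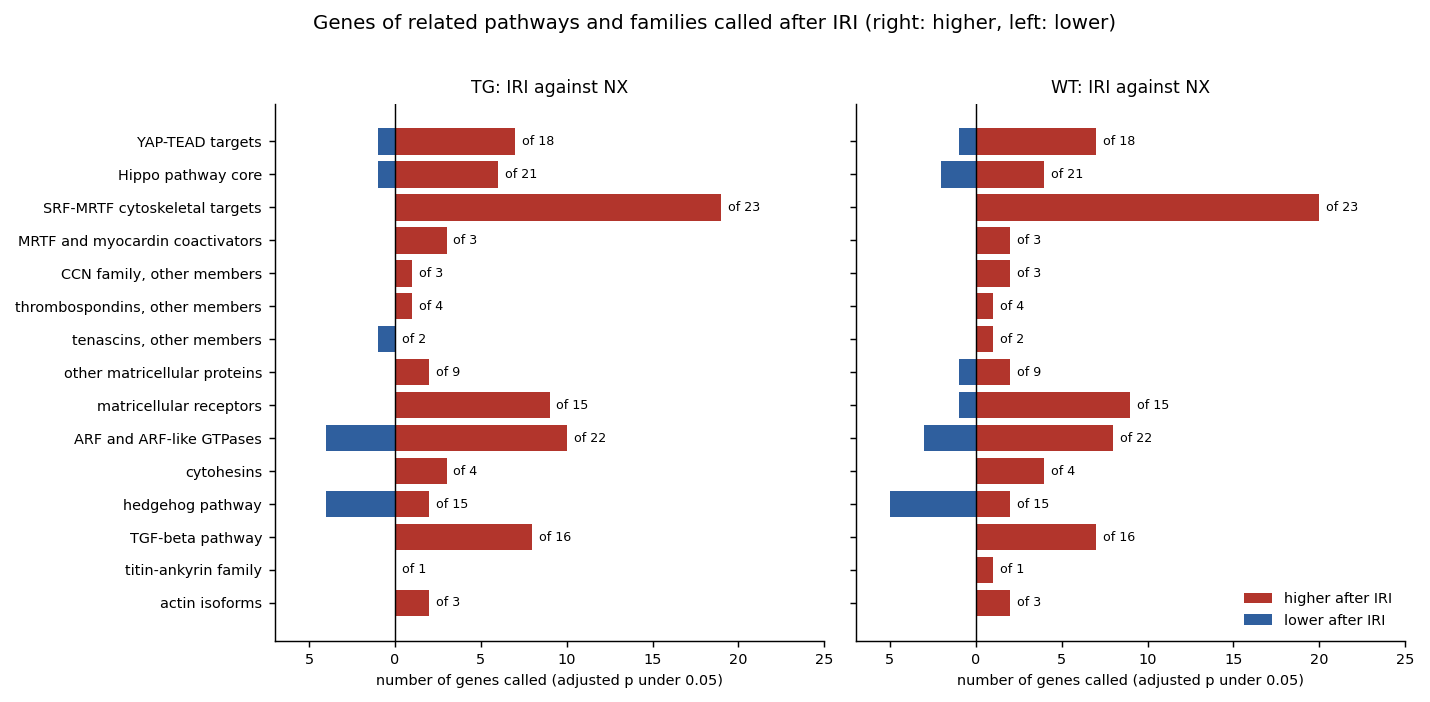
Number of genes of each of 15 related pathways or families called higher (right of 0) or lower (left of 0) after IRI than after NX, in TG and in WT, with the number measured beside each bar. The SRF and MRTF targets have the longest bars, with 19 of 23 in TG and 20 of 23 in WT, and the hedgehog list is the one with more genes lower than higher in both genotypes.

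Between genotypes after IRI, 0 of the 185 measured genes of all 17 lists were called by edgeR, 43 (23.2%) had an unadjusted p under 0.05, beside 14.1% of all genes, and DESeq2 called 13. Arl4d was at -0.54 ± 0.12 and Tnn at -1.56 ± 0.32 on the log2 scale (edgeR adjusted p = 0.106 and 0.0918). Cyth3 was at -0.13 ± 0.08 (adjusted p = 0.51) by edgeR. Without WT IRI replicate 3, 7 of the list genes were called by edgeR, and without WT IRI replicate 2, 1 was.

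Without surgery, where the members were not chosen on a response to injury, several were higher in females than in males. In TG the edgeR test called Arl4c (0.59 ± 0.10, adjusted p = 0.00137), Acta2 (0.85 ± 0.23, adjusted p = 0.0174) and Ccn2 (0.65 ± 0.21, adjusted p = 0.044) higher in females. In WT it called Arl4c (0.43 ± 0.10, adjusted p = 0.00995), Ankrd1 (1.31 ± 0.35, adjusted p = 0.0184), Ccn1 (0.74 ± 0.22, adjusted p = 0.0275) and Ccn2 (0.70 ± 0.21, adjusted p = 0.0304) higher in females. This is 3 of 9 in TG, beside 9.87% of all 19126 genes called higher, and 4 of 9 in WT, beside 10.1%. None was lower in females, and the estimates of all 9 were above 0 in both genotypes, with a median of 0.56 in TG and 0.50 in WT, beside 0.02 and 0.03 over all genes.

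The groups did not overlap for Arl4c, Ccn2 and Acta2 in TG, nor for Arl4c, Ankrd1 and Ccn1 in WT, whereas Ccn2 in WT overlapped through WT male replicate 2, at 62.7 CPM. Over all genes 19.8% in TG and 18.5% in WT were higher in females without overlap. Arl4c kept its call in both genotypes in each of the 6 fits that left out 1 of its libraries. The others did not. With TG female replicate 2 left out 1 of the genes was called in TG, and 2 with any other library left out. In WT 2 were called without WT female replicate 0, WT female replicate 2 or WT male replicate 0, and 3 in the other fits. The call of Ccn2 in TG held in 1 of 6 fits, that without TG male replicate 2, with adjusted p up to 0.153 by edgeR. Acta2 in TG lost its call without TG female replicate 2 or TG male replicate 2, with adjusted p up to 0.0726. In WT Ccn1 was lost without female replicates 0 or 2 or male replicates 0 or 2 (adjusted p up to 0.111), Ccn2 without female replicates 1 or 2 or male replicates 0 or 1 (adjusted p up to 0.115), and Ankrd1 without replicate 0 of either sex (adjusted p up to 0.0765).

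Beside Acta2, summed smooth muscle and pericyte markers were at 400 to 455 CPM in TG females and 275 to 297 CPM in TG males, and at 366 to 457 CPM in WT females and 288 to 361 CPM in WT males. Of the 12 markers 6 were called higher in females in TG and 3 in WT, and 0 lower. Of 5 collecting duct markers 3 were called higher in females in TG and 5 in WT, with 4 of 5 podocyte markers and 3 of 4 thick ascending limb markers in each genotype. Summed thick ascending limb markers were at 8617 to 9131 CPM in TG females and 4884 to 5406 CPM in TG males, and at 8636 to 10003 CPM in WT females and 4914 to 7235 CPM in WT males. Of 7 proximal tubule markers 3 were higher and 2 lower in TG, and 1 higher and 2 lower in WT. Each of the other 6 marker lists had at most 2 genes called. The part of these markers in the differences of the 9 genes was not tested. Tagln and Cnn1 stand in this marker list and among the SRF and MRTF targets. Of the SRF and MRTF targets 5 were higher and 2 lower in females in TG, and 7 higher and 2 lower in WT, out of 23. The YAP and TEAD targets split into 6 higher and 3 lower in TG and 5 higher and 4 lower in WT, out of 18. Over all genes 11.3% were called lower in females in each genotype.

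**Figure D5:**
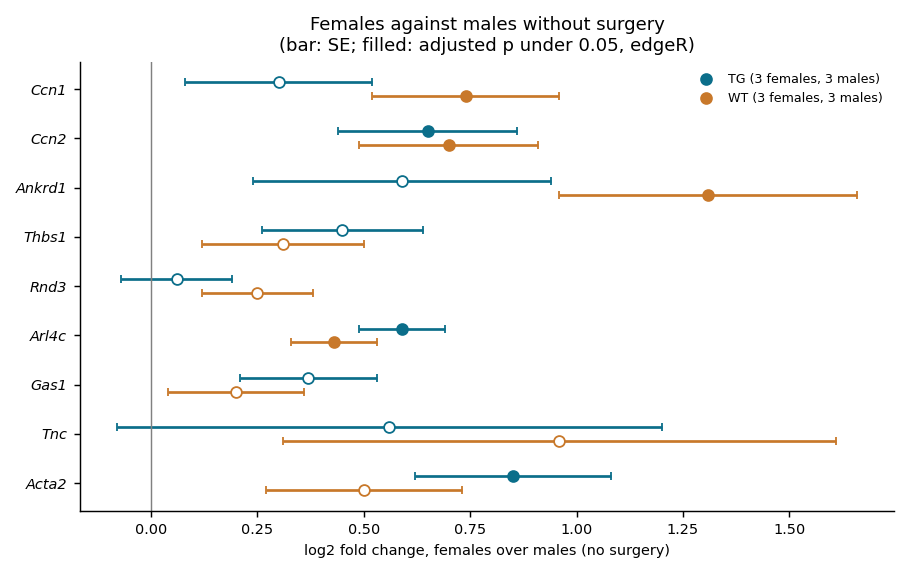
Log2 fold change of females over males without surgery for the 9 genes, with TG in blue above WT in orange, SE bars, and filled points where the adjusted p of edgeR was under 0.05. All 18 points lie above 0, from 0.06 for Rnd3 in TG to 1.31 for Ankrd1 in WT.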

How the data were processed

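Each of the 30 libraries was 1 whole-kidney sample. Per the submitters' processing notes the authors used fastp 0.23.2 and STAR 2.7.0, with GRCm39 as the genome build, and featureCounts 2.0.3, per the file headers, gave the counts, on Ensembl release 112 genes plus EGFP. Values were deposited as raw whole-number counts, with no normalization. Of counts of 10 or more, 37.3 to 41.9% were odd, so halved counts were tried as an alternative. Symbols came from GENCODE by identifier (90.8% matched).

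The two-sided quasi-likelihood test came from edgeR 4.0.16 (R 4.3.3), after TMM and filterByExpr, and p was adjusted by Benjamini-Hochberg over all genes, with 0.05 as the threshold. TG against WT used the 12 IRI or the 6 NX libraries. IRI against NX and the interaction used all 18 surgery libraries, and comparisons without surgery all 12 others. Correlations used log2 CPM with a prior count of 2. The test was checked on simulated counts. Over 48 pairs of libraries within groups none were copies by a chi-square comparison of counts (18.6 to 198 per degree of freedom).

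The genes and the 17 pathway and 11 marker lists were chosen with earlier results of these data known. Named are all 9 genes, the 3 genes most like each, and of each list up to 4 genes with the largest change among those called in IRI against NX in WT, or otherwise the 1 with the smallest p. Of these, 2 lists, apart from Rnd1, and 1 further gene are not reported here. Promoter windows were from RefSeq (GRCm38.p6). Alternatives were RLE factors, no count filter, DESeq2 1.42.0, a replicate block, halved counts, all 18 surgery libraries in the fit, another prior count, and each library left out in turn.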

Additional observations from a re-analysis of the deposited data

How the results depend on the processing

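Under RLE factors, no count filter and halved counts, TG against WT after IRI called 4 of the 9 genes, as in the main comparison, and it called 5 under DESeq2. With all 18 surgery libraries in the fit Ccn1 was not called (-0.83, adjusted p = 0.152, edgeR). With 1 library left out the number called ran from 0 to 5. The number was 0 to 0 for TG against WT after NX and without surgery and for the interaction, 1 to 2 for females against males in TG and 2 to 3 in WT. Acta2 in TG against WT after IRI ran from -0.03 to 0.27, below 0 without TG IRI replicate 0 (-0.03) or WT IRI replicate 2 (-0.01), and the interaction for Ccn1 from -0.95 to 0.01. Of the list genes, 0 were called between genotypes after IRI, 1 with no count filter, 13 by DESeq2 and 0 to 7 with 1 library left out. The list genes called in IRI against NX ran from 88 to 101 in TG and 84 to 100 in WT. Of the 36 pairs of genes 12 passed by Pearson r, and 8 to 13 with 1 library left out, 8 being without WT IRI replicate 0. Of the 12, 9 hold a gene that separates the genotypes, so the difference between genotypes enters their pooled correlation. Among the 10 pairs of the other 5 genes, an alternative chosen after seeing the data, 3 passed. The 7 genes at least 2-fold higher after IRI remained 7 in number under every alternative run.

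Over all genes, TG against WT after IRI called 12, with 43 under no count filter, 363 by DESeq2, 22 with all 18 libraries in the fit, and 0 to 109 with 1 library left out. The replicate numbers were not taken to pair the samples, since in no comparison was the correlation of deviations over 0.1 in every pair of libraries with the same number. It was -0.03 to 0.06 in the 6 pairs of TG and WT after IRI, 0.03 to 0.14 after NX, 0.04 to 0.27 in no-surgery males, 0.02 to 0.15 in no-surgery females, and 0.06 to 0.2 in TG and 0.04 to 0.17 in WT between the sexes. After NX and between the sexes in WT, each of the 3 pairs was nonetheless the best match, which is a hint from the data and not from the design. With the replicate block 2 of the 9 genes were called in TG against WT after IRI, and 5 genes of all tested, with Rnd3 at -0.73 (adjusted p = 0.0574, edgeR) and Gas1 at -0.87 (adjusted p = 0.0607, edgeR). In that fit 40 genes were called in TG against WT in no-surgery females, against 8 without the block, none of them among the 9, and between the sexes 4 of the 9 were called in TG and 5 in WT. The causes of these changes were not tested.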
